A study of Chlamydomonas reinhardtii with 9 samples.

Results

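FEA1, IRT1 and FOX2 are 3 nuclear genes of the green alga Chlamydomonas reinhardtii that are tied by name to iron: a secreted iron-binding protein, a transporter of the ZIP family and a multicopper oxidase. They were taken from the gene name column of the deposited table, in which each name stood in 1 row, so that 3 of 17301 transcripts are described. Strain CC-4532 (2137) was kept at 24 °C in continuous light of 90 µmol photons per square metre and second on TAP, a medium with acetate. Every culture was spun down in mid-log growth, washed in TAP without its iron chelate Fe-EDTA and put into fresh TAP with 0 µM Fe-EDTA, and RNA was taken from the start (0 h) over the first 4 h (0.5, 1, 2 and 4 h) and then later on (8, 12, 24 and 48 h). The table held 2 columns per time, here called duplicate 1 and duplicate 2, which the series design text gives as biological duplicates. Iron-replete cells of the later times were not analysed here, so that loss of iron, the washes, new medium and growth of the culture cannot be told apart in any change from 0 h. As in all bulk RNA, a change in the number of cells that hold a transcript and in the amount per cell cannot be told apart either.

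Algae short of iron raise its import at the cell surface. Ferric iron is reduced by a ferric-chelate reductase (FRE1), then oxidized again by a copper-containing ferroxidase (FOX1) while a permease (FTR1) carries it through the plasma membrane, as in the pair Fet3p and Ftr1p of yeast. FEA1 acts outside this membrane: it is secreted into the periplasmic space, binds iron there, and was first known as a protein of cells grown in high CO2, which the table's description also records. IRT1 belongs to the ZIP proteins, which move divalent metals into the cytosol, and in Arabidopsis the protein of that name is the main entry of ferrous iron into the root. FOX2 is described in the table as a multicopper ferroxidase-like protein, and no function in iron uptake is taken for granted here.

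The values are RPKM, read numbers scaled by transcript length and by the size of the library, so that levels of different genes can be set beside each other. The libraries held about 13200000 to 33400000 reads, recovered from the steps between low values. Changes were tested with limma-trend on log2(RPKM + 1) over 13077 genes. A call needed both an adjusted p under 0.05 and a 2-fold or larger difference. The added 1 RPKM understates changes of low genes such as IRT1. The median of all tested genes itself moved, on the log2 scale, between -0.16 at 8 h and 0.29 at 24 h against 0 h. The p-values cover the spread between these columns alone, and whether the duplicates came from cultures grown apart is not stated beyond the word biological.

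The 3 transcripts took 3 different courses. FEA1 was abundant at the start, rose by the first sampling, had a higher mean at each later time up to 24 h and fell by 48 h to a level still above that of 0 h. IRT1 was scarce at the start, reached its high level at 4 h, held it to 24 h and at 48 h was back near its level of 0 h. FOX2 went down to a low at 4 h and then up, with its highest level at 48 h. Any change over the 9 times was called for all 3 by the moderated F test (limma-trend adjusted p = 1.0e-05 for FEA1, 1.1e-06 for IRT1 and 4.5e-09 for FOX2), but so it was for 98.6% of tested genes.

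**Figure D1:**
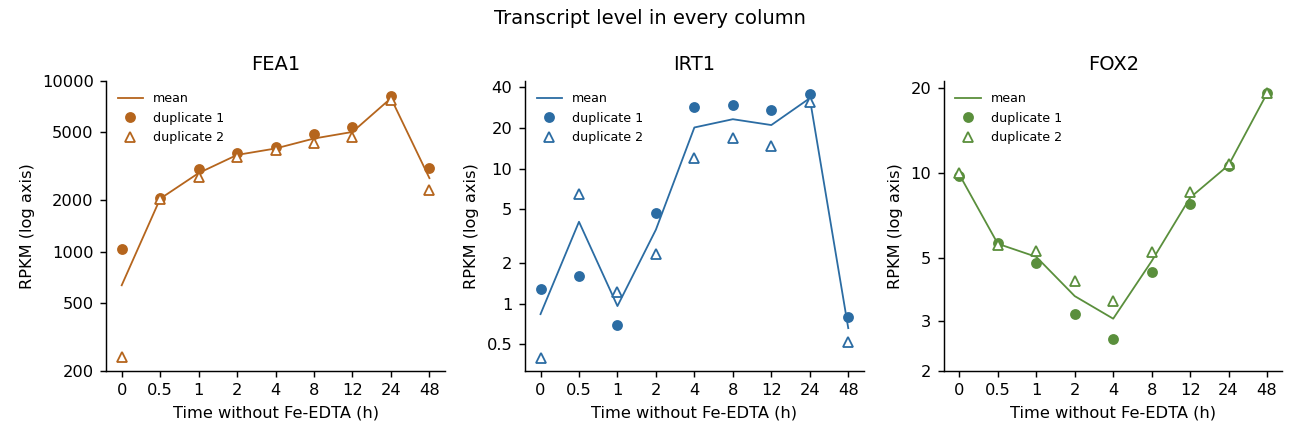
RPKM of FEA1, IRT1 and FOX2 (y axis, log scale) at the 9 times without Fe-EDTA (x axis, evenly spaced and not to scale), with filled circles for duplicate 1, open triangles for duplicate 2 and a line through their mean. FEA1 peaks at 24 h, IRT1 stands on a plateau from 4 to 24 h between low levels, and FOX2 has its low at 4 h and its high at 48 h.

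FEA1 (Cre12.g546550; 2371 bases as solved from the values), the secreted iron-binding protein, had 1029 and 240.1 RPKM at 0 h in duplicates 1 and 2, then 2053 and 2030.2 after 0.5 h, 3047 and 2726 at 1 h, 3786 and 3589 after 2 h, and 4130.0 and 3915 at 4 h. It went on to 4874 and 4331 RPKM after 8 h, 5367 and 4693 at 12 h, 8159 and 7706 after 24 h, and 3086 and 2305 at 48 h. Both duplicates of every later time stood above both of 0 h, and those of 24 h stood above all others. Its change against 0 h was 2.04 on the log2 scale at 0.5 h (SE 0.37, 95% confidence interval 1.24 to 2.84, limma-trend adjusted p = 4.9e-04) and 3.99 at 24 h (interval 3.19 to 4.79, limma-trend adjusted p = 9.5e-07). At 48 h the change was 2.42 (interval 1.62 to 3.22, limma-trend adjusted p = 4.7e-05).

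The gap between the duplicates at 0 h decides how large these changes are. In RPKM, duplicate 1 was 4.28 times duplicate 2 there, on the log2(RPKM + 1) scale a wider gap than in 99.87% of tested genes, whereas at the other 8 times their ratio was between 1.01 and 1.34. Within duplicate 1, FEA1 at 24 h was 7.93 times its level of 0 h, and within duplicate 2 it was 32.1 times. Leaving out duplicate 1 of 0 h gave a log2 change of 3.01 at 0.5 h and 4.96 at 24 h, and leaving out duplicate 2 of 0 h gave 1.06 and 3.02. FEA1 was called at all 8 times in each of these fits.

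From 0.5 h on, the mean of FEA1 went up in small steps, none of which passed the test by itself, although at 24 h it was 1.96 above 0.5 h (SE 0.37, limma-trend adjusted p = 6.9e-04), a comparison that called 6.22% of tested genes higher. Ordered by level, the times ran 24, 12, 8, 4, 2, 1, 48, 0.5 and 0 h, and the last neighbours in that order, 0.5 and 0 h, were the only ones that passed both limits of the call. The step to 24 h, 8159 and 7706 RPKM against 5367 and 4693 at 12 h, was 0.66 on the log2 scale (SE 0.37, limma-trend adjusted p = 0.130). The standard error is the same for every step, since the fit gives FEA1 a single spread, to which the gap at 0 h contributes. With both columns of 0 h left out, a fit chosen after this gap was seen, the SE was 0.084 and the adjusted p of that step 2.2e-05 (limma-trend), still short of 2-fold. In the same fit the steps from 0.5 to 1 h (0.50) and from 1 to 2 h (0.35) had adjusted p-values of 0.00371 and 0.0110 (limma-trend), also short of 2-fold. The step from 4 to 8 h was 0.19 (limma-trend adjusted p = 0.0847) and that from 8 to 12 h was 0.13 (adjusted p = 0.276). FEA1 fell by 1.57 at 48 h against 24 h (SE 0.37, limma-trend adjusted p = 0.00204). Its levels at 48 h overlapped those at 1 h.

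FEA1 was also one of the most abundant transcripts of the cells. Its share of the summed RPKM was 1.01 and 0.958% at 24 h, against 0.122 and 0.0279% at 0 h. By level it ranked 11 and 10 of 17301 at 24 h, against 154 and 401 at 0 h. At 24 h its mean of 7933 RPKM compares with 1446 for FRE1, 1055 for FTR1 and 878 for FOX1. At 48 h its rank was 72 and 88.

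IRT1 (Cre12.g530400; 1667 bases), the ZIP transporter that the table describes as responsive to iron nutrition and as physically linked to IRT2, was a rare transcript at first. It had 1.27 and 0.398 RPKM at 0 h, 1.61 and 6.46 after 0.5 h, 0.690 and 1.23 at 1 h, and 4.71 and 2.35 after 2 h. These low values rest on few reads, 39 and 21 at 0 h and 27 in each duplicate at 1 h. The level then stood at 28.4 and 11.9 RPKM after 4 h, 29.5 and 16.9 at 8 h, 27.2 and 14.8 after 12 h, 35.5 and 30.8 at 24 h, and 0.795 and 0.520 after 48 h. Every value from 4 to 24 h lay above every value of the other times, and the 48 h values lay between those of 0 h.

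IRT1 was called higher than at 0 h at each of the 4 times of the plateau. At 4 h IRT1 was 3.45 above 0 h on the log2 scale (SE 0.47, interval 2.44 to 4.46, limma-trend adjusted p = 2.9e-05), and at 24 h it was 4.26 above it (interval 3.25 to 5.27, adjusted p = 4.1e-06). The size at 24 h depends on the pseudocount, with 5.33 for 0.1 RPKM and 2.71 for 5 RPKM, while FEA1 had 4.00 and 3.98, so that the order of IRT1 and FEA1 by size of change turns with it. The step from 2 to 4 h was 2.15 (SE 0.47, limma-trend adjusted p = 0.00519), a rise called in 0.291% of tested genes. That call was lost without duplicate 2 of 2 h (1.90, adjusted p = 0.0514) or without duplicate 1 of 4 h (1.66, limma-trend adjusted p = 0.0621). Against 0.5 h the rise at 4 h was 2.14 (limma-trend adjusted p = 0.00217), in a comparison that called 1.28% of tested genes higher.

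IRT1 then fell by 4.37 at 48 h against 24 h (SE 0.47, interval -5.38 to -3.36, limma-trend adjusted p = 2.6e-06). The libraries of 48 h held 29 IRT1 reads each, against 1680 and 835 in those of 24 h. Set against 0 h, the 48 h level differed by -0.11 (interval -1.12 to 0.90, limma-trend adjusted p = 0.837), an interval that spans rises and falls of about 2-fold on this scale. The rank of IRT1 among all transcripts was 2002 and 2265 at 24 h and then 12852 and 13800 by 48 h, against 10770 and 13749 at 0 h.

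The early rise of IRT1 at 0.5 h stands in 1 of its 2 libraries. At 0.5 h IRT1 was called higher than at 0 h (by 1.31 on the log2 scale, SE 0.47, limma-trend adjusted p = 0.0299), yet duplicate 1 had 45 reads and duplicate 2 had 146. The exact Poisson intervals of these values, which cover counting error only, were 1.17 to 2.15 RPKM and 5.45 to 7.60 RPKM and did not overlap. Without duplicate 2 of 0.5 h the change was 0.28 (limma-trend adjusted p = 0.545), and without the duplicate number as a block the adjusted p was 0.0591. It was 0.0504 without duplicate 1 and 0.146 without duplicate 2 of 0 h. With duplicate 1 of 0.5 h left out instead, IRT1 at 1 h lay 2.21 below 0.5 h (limma-trend adjusted p = 0.0108), and with either duplicate of 0.5 h left out the step of 1.17 from 1 to 2 h passed the test (adjusted p = 0.0139). The call at 2 h (log2 change 1.29, limma-trend adjusted p = 0.0268) was likewise lost without duplicate 2 of 0 h (1.07, adjusted p = 0.138) or without duplicate 1 of 2 h (1.04, adjusted p = 0.159).

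On its plateau IRT1 was the higher in duplicate 1, by 2.38 times at 4 h, 1.75 times at 8 h, 1.84 times at 12 h and 1.15 times at 24 h. On the log2(RPKM + 1) scale the gaps at 4, 8 and 12 h were wider than in 99.37, 97.83 and 98.07% of tested genes. Ordered by level, the times ran 24, 8, 12, 4, 0.5, 2, 1, 0 and 48 h. Only 4 and 0.5 h differed as neighbours in this order by the call, and no step among 4, 8, 12 and 24 h passed the test.

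**Figure D2:**
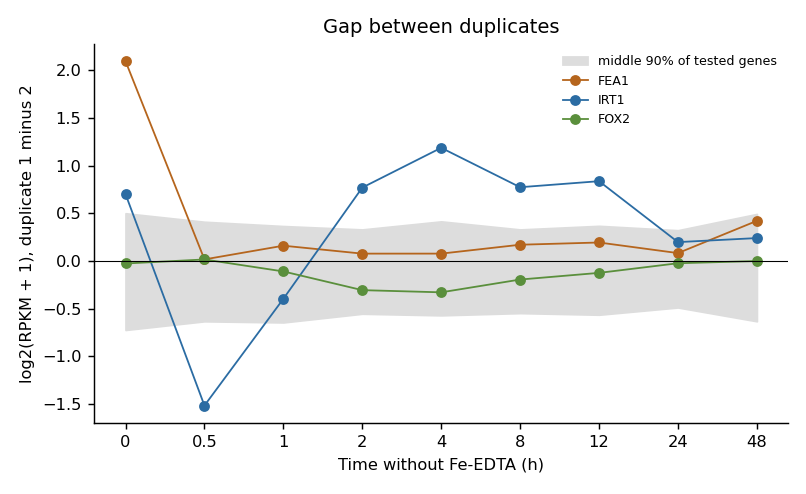
Difference between duplicates, 1 minus 2, in log2(RPKM + 1) (y axis) at each time (x axis, evenly spaced) for FEA1, IRT1 and FOX2, over a grey band that spans the middle 90% of tested genes. FEA1 leaves the band at 0 h, IRT1 at 0, 0.5 and 2 to 12 h, while FOX2 stays inside it.

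FOX2 (Cre12.g531200; 4562 bases), the second multicopper oxidase, had 9.80 and 9.996 RPKM at 0 h, 5.67 and 5.59 after 0.5 h, 4.83 and 5.29 at 1 h, 3.18 and 4.17 after 2 h, and 2.60 and 3.52 at 4 h. From this low it went to 4.49 and 5.28 RPKM after 8 h, 7.80 and 8.59 at 12 h, 10.6 and 10.8 after 24 h, and 19.2 in both duplicates after 48 h. The duplicates of 0.5 to 12 h all lay under those of 0 h, and those of 24 and 48 h lay above them.

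The fall was called at 2 h, by 1.23 on the log2 scale (SE 0.11, interval -1.46 to -0.998, limma-trend adjusted p = 8.4e-07), and at 4 h, by 1.43 (interval -1.67 to -1.204, adjusted p = 2.1e-07). With a pseudocount of 5 RPKM these changes were -0.78 and -0.89, under 2-fold. At 0.5, 1 and 8 h the changes were -0.72, -0.85 and -0.89, with limma-trend adjusted p-values of 1.2e-04, 2.1e-05 and 8.3e-06, and missed the call by their size alone. At 1 h the change was -1.02 and called after each column was centred on its median.

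At 48 h FOX2 stood 0.89 above 0 h (interval 0.66 to 1.12, limma-trend adjusted p = 5.0e-06), 1.94 times in mean RPKM and so just under the limit of 2-fold. Against its low at 4 h it rose by 2.32 (SE 0.11, interval 2.09 to 2.55, limma-trend adjusted p = 5.8e-10), in a comparison that called 21.3% of tested genes higher. The levels at 24 and 0 h did not differ beyond their spread (0.10, interval -0.13 to 0.33, limma-trend adjusted p = 0.417), and the sign turned to -0.23 after centring. By level the times ran 48, 24, 0, 12, 0.5, 1, 8, 2 and 4 h. Between neighbours of that order, 48 and 24 h, 12 and 0.5 h, and 8 and 2 h had adjusted p-values under 0.05 (limma-trend: 2.3e-05, 0.00159 and 0.0164), all with changes under 2-fold.

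Counted together, 2 of the 3 genes were called higher at 0.5 h (FEA1 and IRT1), where 5.64% of tested genes were, and FEA1 alone at 1 h, where 8.38% were. At 2 h FEA1 and IRT1 were higher, among 9.44% of tested genes, and FOX2 lower, among 7.18%. The same calls held at 4 h, with 5.99% of genes higher and 11.8% lower. FEA1 and IRT1 were the 2 higher members at 8, 12 and 24 h, beside 7.36, 10.1 and 14.8% of genes. At 48 h FEA1 alone was higher, beside 18.4%. No member was called lower at the other 6 times, where 3.48% (0.5 h), 4.95% (1 h), 13.9% (8 h), 18% (12 h), 6.39% (24 h) and 15.8% (48 h) of genes were. Between neighbouring later times, IRT1 rose from 2 to 4 h, and FEA1 and IRT1 fell between 24 and 48 h, when 16.1% of tested genes did. No member was called in the other 5 steps after 0.5 h, in which 0.52% (1 against 0.5 h), 0.933% (2 against 1 h), 6.3% (8 against 4 h), 3.53% (12 against 8 h) and 16.8% (24 against 12 h) of tested genes changed.

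**Figure D3:**
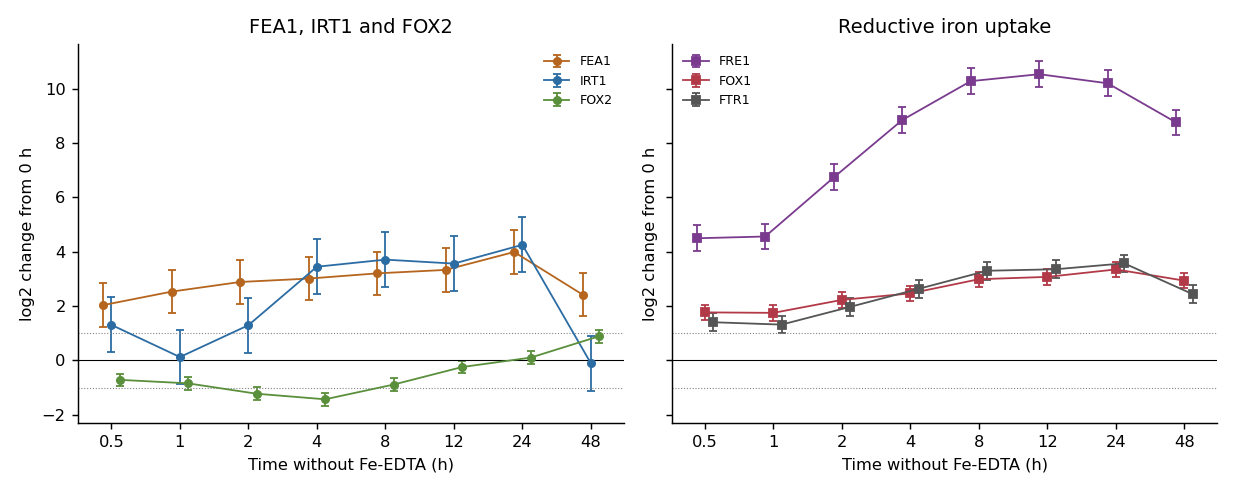
Change from 0 h in log2(RPKM + 1) (y axis) at the 8 later times (x axis, evenly spaced), with 95% confidence intervals from limma-trend, for FEA1, IRT1 and FOX2 on the left and FRE1, FOX1 and FTR1 on the right. Dotted lines mark 2-fold. At 24 h FEA1 lies at 3.99, IRT1 at 4.26 and FOX2 at 0.10, and on the right FRE1 lies at 10.21, FTR1 at 3.57 and FOX1 at 3.35.

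The 3 genes of reductive uptake serve as a measure for these courses. FRE1 (Cre04.g227400), the reductase, averaged 27.8 RPKM after 0.5 h, 1804 after 12 h and 525 after 48 h, against 0.200 at 0 h, where each library held 20 reads. FOX1 (Cre09.g393150), the ferroxidase, averaged 878 RPKM at 24 h and 661 at 48 h, against 87.3 at 0 h. FTR1 (Cre03.g192050), the permease, averaged 1055 RPKM at 24 h and 479 at 48 h, against 88.8 at 0 h. Their changes at 48 h were 8.76, 2.94 and 2.44, each called (limma-trend adjusted p = 4.4e-12, 5.3e-10 and 8.2e-09), beside 2.42 for FEA1, -0.11 for IRT1 and 0.89 for FOX2. These comparisons share the columns of 0 h. Of the 6 uptake genes tested, FOX2 was the one whose call at 2 and 4 h was downward, and its level at 24 h, 10.7 RPKM, was the lowest of the 6. The median of the 6 at 24 h was 3.78, against 0.29 for all tested genes. The names FEA2, FRE2 and IRT2 had no match in the table, so these genes were not analysed by name. Rows without a name, such as the direct neighbours of FEA1 and IRT1 described below, may hold them, which was not tested.

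Of the other ZIP genes with a searched name, ZIP2, ZIP4 and ZIP6 were tested. ZIP6 (Cre06.g299600) was lower throughout and had 2.60 RPKM at 24 h, against 12.8 at 0 h (log2 change -1.93, limma-trend adjusted p = 2.6e-08). ZIP4 (Cre02.g127650) had 3.48 RPKM at 12 h, against 0.486 at 0 h (1.58, limma-trend adjusted p = 3.2e-07), the one called rise among these 3. At 24 h 1 of the 4 ZIP genes was higher, namely IRT1, and 1 lower, beside 14.8 and 6.39% of all tested genes, with a median of 0.64, beside 0.29 for all genes. Among NRAMP1, MTP1 and MTP2, carriers of manganese and other metals, the putative zinc transporter MTP1 (Cre01.g058300) was the one called at 24 h (1.33, limma-trend adjusted p = 3.2e-07), and it was not called after centring.

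Multicopper oxidases need copper. Of 8 tested genes of copper supply and copper response, 3 were lower (4 after centring) and 1 was higher at 24 h, where 6.39% of all tested genes were lower and 14.8% higher. By 48 h 5 were lower and 1 higher, beside 15.8 and 18.4% of all genes. The medians of the 8 for these times were -0.32 and -1.69, beside 0.29 and 0.14 for all tested genes. COPT1 (Cre05.g247050), a copper transporter gene of the CTR type, was the higher one at 24 h, with 10.2 RPKM against 3.39 at 0 h (1.35, limma-trend adjusted p = 2.7e-06). CTR2 (Cre10.g434350), also a copper transporter gene, CYC6 (Cre16.g651050), the cytochrome that replaces plastocyanin, and CRD1 (Cre07.g346050), a cyclase of chlorophyll synthesis, changed by -2.19, -2.08 and -1.62 at 24 h. CYC6 had first been called higher, by 2.06 at 0.5 h and by 1.74 at 1 h (limma-trend adjusted p = 7.9e-05 and 2.0e-04). The copper chaperone gene ATX1 (Cre02.g128200), which serves ferroxidases in yeast, changed by 0.95 at 24 h (interval 0.75 to 1.15, limma-trend adjusted p = 1.7e-06), under 2-fold.

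FEA1 is listed as inducible by high CO2, so a list of genes of inorganic carbon supply was read beside it. Many of these are known to be low in high CO2, but not all, RHP1 being known as a gene of high CO2. Of 14 tested, 6 were lower and 1 higher by 0.5 h, beside 3.48 and 5.64% of all tested genes. By 24 h 11 were lower and 1 higher, beside 6.39 and 14.8% of all genes. Centring added 1 lower gene each time, and the medians were -0.86 and -4.60, beside 0.14 and 0.29 for all genes. The bicarbonate channel gene NAR1.2 (Cre06.g309000), CCP2 (Cre04.g222750), of the plastid envelope, and CAH1 (Cre04.g223100), a carbonic anhydrase of the periplasm, changed by -8.65, -6.67 and -5.25 at 24 h, and LCI1 (Cre03.g162800), of the plasma membrane, was listed at 0 there, against 109 RPKM at 0 h. CAH1 was the 1 higher gene at 0.5 h, where FEA1 was first called: it averaged 571 RPKM after 0.5 h and 639 after 1 h, against 62.1 at 0 h, and was called higher at both times (3.32 and 3.49, SE 1.11, limma-trend adjusted p = 0.0218 and 0.0150). RHP1 (Cre06.g284100) was called higher at 1, 2 and 4 h, by 1.05, 1.96 and 1.63, and lower from 12 h on. CAH1 and RHP1 at these times were named with their values known. The part of carbon supply in the rise of FEA1 was not tested.

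The duplicates of 0 h also differed in other genes of these lists. Duplicate 1 was the higher for 5 of the 6 uptake genes, while the ratio was 0.98 for FOX2. The ratio was 4.28 for FEA1, 3.20 for IRT1, 1.72 for FRE1, 1.57 for FOX1 and 1.44 for FTR1. For FRE1 it rests on 20 reads in each library, and so on library size alone. For IRT1 it rests on 39 and 21 reads, whose exact Poisson intervals, 0.905 to 1.74 and 0.246 to 0.608 RPKM, did not overlap. FER1 (Cre09.g387800), the main ferritin gene, was 1.81 times higher in duplicate 1. Duplicate 2 was the higher for CYC6, 3.65 times, CAH1, 2.59 times, NRAMP1, 2.04 times, and LCI1, 1.81 times. LCR1 (Cre02.g136800), a regulator of carbon concentration, was 2.10 times higher in duplicate 1. The correlation between the 2 columns across genes, which are not independent, was 0.982 at 0 h and 0.982 to 0.989 at the other times. The part of these differences in the gap of FEA1 was not tested.

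Among 2409 genes with a symbol and a range of at least 2-fold, those whose course was most like FEA1 included 2 partners of uptake and ferritin. Pearson's r of log2(mean RPKM + 1) over the 9 times, which share the same 18 libraries, was 0.95 for FER1 and 0.93 for each of SOUL3 (Cre16.g666550), a gene for a heme-binding protein of the SOUL type, FOX1, GIP1 (Cre06.g290000), described as glyoxylate induced, and FTR1. FER1 averaged 1414 RPKM at 24 h and 572 at 48 h, against 271 at 0 h. Both ferritin genes tested were called higher at 24 h, where 14.8% of all tested genes were, FER1 by 2.44 and FER2 (Cre13.g574500) by 4.55 (limma-trend adjusted p = 8.2e-08 and 6.6e-12), and FER2 averaged 23.9 RPKM at 24 h and 0.0649 at 0 h. GIP1, at a far lower level, had 25.6 RPKM at 24 h and 13.1 at 48 h, against 7.67 at 0 h.

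For IRT1 the nearest course was that of CGLD27 (Cre05.g237050), a conserved gene of unknown function in photosynthetic organisms (r = 0.94). Its level was 45.1 RPKM after 4 h, 126 after 12 h, 85.9 after 24 h and 9.24 after 48 h, against 12.7 at 0 h. Next came FAP199 (Cre09.g399400), of the flagellar proteome, and CPL5 (Cre16.g690600), a peptidase of family M16, both at 0.91, then TSN1 (Cre11.g477850), a putative coactivator with Tudor and nuclease domains, and RPB3 (Cre10.g419750), a subunit of RNA polymerase II, both at 0.90. In mean level all 5 were higher at 4, 8, 12 and 24 h than at either end of the course.

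FOX2 had more company than the other 2 genes, with r above 0.9 for 366 of 9864 genes with a 2-fold range, against 95 for FEA1 and 17 for IRT1. The 3 genes also differed in spread, with an SE of 0.11 for FOX2, 0.37 for FEA1 and 0.47 for IRT1. For IRT1 the exact Poisson intervals of the duplicates, which cover counting error only, overlapped at 1 and 48 h and did not at the other times. How much of each spread counting error makes up was not tested. VPE1 (Cre12.g483550), a vacuolar processing protease, was the nearest to FOX2 at 0.98, with 7.52 RPKM at 4 h and 83.6 at 48 h, against 21.7 at 0 h. CTL2 (Cre17.g699700), a C-type lectin, MAM3A (Cre02.g145150), a membrane protein with CBS domains, NAH1 (Cre06.g281400), a cation antiporter, and RBL1 (Cre01.g059400), a rhomboid-like protein, followed at 0.97. None of these 5 is an iron uptake gene of the list. The members themselves correlated at 0.75 for FEA1 with IRT1, -0.17 for FEA1 with FOX2 and -0.29 for IRT1 with FOX2.

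**Figure D4:**
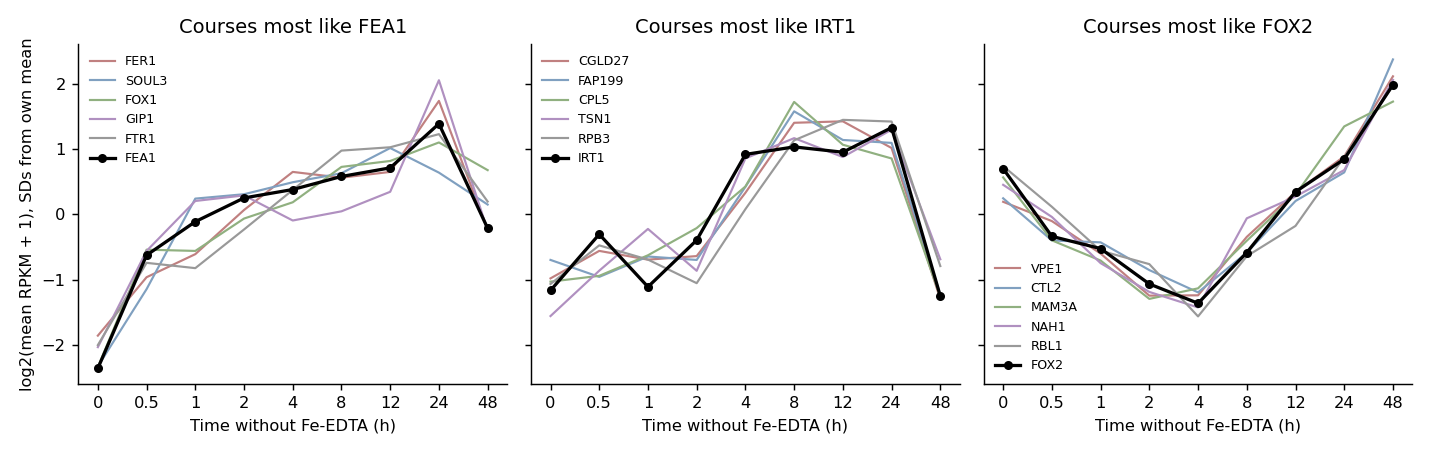
Course of each member (black) and of the 5 named genes most like it (coloured), as log2(mean RPKM + 1) in SDs from the gene's own mean over the 9 times (y axis), against time without Fe-EDTA (x axis, evenly spaced). The genes around FEA1 peak at 12 or 24 h, those around IRT1 are high from 4 or 8 h to 24 h and low at 48 h, and those around FOX2 have their low at 2 or 4 h.

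All 3 genes lie on chromosome 12 in the RefSeq gene order (assembly Chlamydomonas_reinhardtii_v5.5), and their direct neighbours were looked at after their values had been seen. Both genes beside FEA1 were called higher at all 8 times. Cre12.g546600 had 3306 and 2869 RPKM at 24 h and 1568.0 and 964 at 48 h, against 201 and 149 at 0 h, and its log2 change at 24 h was 4.14 (SE 0.28, limma-trend adjusted p = 7.1e-08). On the other side, Cre12.g546500 had 722 and 897 RPKM at 24 h and 646 and 685 at 48 h, against 101 and 70.5 at 0 h (a change at 24 h of 3.24, SE 0.18, limma-trend adjusted p = 1.4e-08). At 48 h against 24 h the first of them fell by 1.32 (limma-trend adjusted p = 9.2e-04), while for the second the difference was -0.27 (adjusted p = 0.186). Neither carries a name or description in the table. If these genes are copies of FEA1 or of each other, how the reads were divided among them is not known.

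Beside IRT1, Cre12.g530350 had 64.4 and 65.8 RPKM at 24 h and 26.9 and 19.9 at 48 h, against 13.5 and 4.60 at 0 h. Its change at 24 h was 2.88 (SE 0.30, limma-trend adjusted p = 2.7e-06). At 48 h it was 1.42 (limma-trend adjusted p = 7.3e-04), where that of IRT1 was -0.11. The gene on the other side of IRT1, Cre12.g530450, averaged 1.2 RPKM at 24 h and 0.371 at 0 h and was called higher at 2 h alone. Of the pair beside FOX2, Cre12.g531150 was called at no time, and Cre12.g531250 was called higher from 4 to 12 h, when FOX2 lay under its level of 0 h. Of the 6 direct neighbours, 3 were called higher at 24 h, where 14.8% of tested genes were, and the other 3 were not called.

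**Figure D5:**
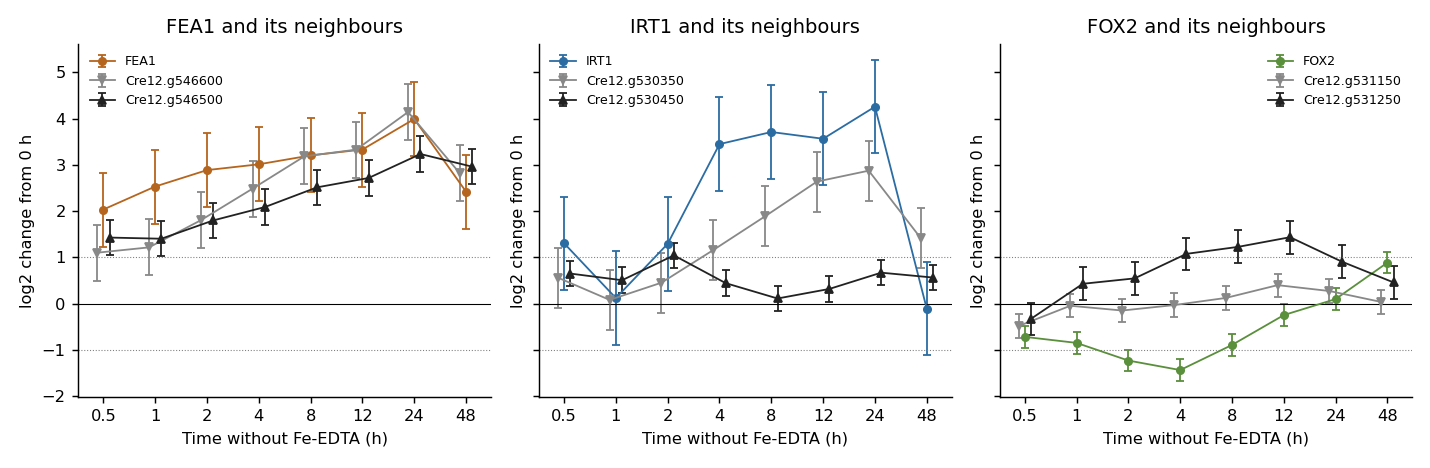
Change from 0 h in log2(RPKM + 1) (y axis) with 95% confidence intervals at the 8 later times (x axis, evenly spaced) for FEA1, IRT1 and FOX2 and, in grey and black, the gene on either side of each. Both genes beside FEA1 reach 3.24 and 4.14 at 24 h, 1 gene beside IRT1 reaches 2.88, and neither gene beside FOX2 was called lower at any time.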

How the data were processed

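RNA-seq of 9 times, 2 columns each, was read from 1 deposited table of 17301 transcripts, with 0 columns of values left unused. The authors deposited RPKM values, a unit read from the values because the header names none. The submitters' processing notes name Bowtie as a tool. Its version, the genome build and the counting are not given in the sources used. Names came from the table. Read numbers and transcript lengths were solved from the RPKM steps with Python 3.11.15 (433 transcripts checked, 98.2% solved with every value whole within 0.05 reads).

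The limma fit (version 3.58.1, R 4.3.3) took log2(RPKM + 1) of the 13077 genes that averaged 1 RPKM or more at 3 or more times. Its terms were time and, as a block, the duplicate number, with 8 degrees of freedom left. P-values were adjusted by Benjamini-Hochberg over all genes. The duplicate numbers in the column names pair the columns: differences between duplicates correlated at 0.31 to 0.73 (median 0.50) over 36 pairs of times. Code was tested on simulated data. The members and lists were chosen with earlier results of these data known. Named genes were the uptake list, the genes of other lists called at 24 h (at most 4 of a list, by size of change) and the 5 named courses most like each member. ZIP4, ATX1, LCR1, NRAMP1 and RHP1 fall outside that rule and were chosen with their values known. Other settings tried were no block, pseudocounts of 0.1, 0.5 and 5, centring, no filter, a filter of 5 RPKM, no variance trend, a threshold of 0.01 and leaving out each column.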

Additional observations from a re-analysis of the deposited data

How the results depend on the processing

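Of 48 results on the members, 32 kept their direction and side of the call under every alternative tried, among them all 8 changes of FEA1 from 0 h. With no replicate block 1 call on a member was lost, IRT1 at 0.5 h (log2 change 1.31, adjusted p = 0.0591, limma-trend). With a pseudocount of 5 the calls of IRT1 at 0.5 and 2 h (0.58 and 0.54) and of FOX2 at 2 and 4 h (-0.78 and -0.89) were lost, and at a threshold of 0.01 those of IRT1 at 0.5 and 2 h (1.31 and 1.29). FOX2 gained a call at 8 h with a pseudocount of 0.1 (-1.01) and at 1 h after centring (-1.02). Centring turned the uncalled changes of IRT1 at 1 h (-0.047) and of FOX2 at 24 h against 0 h (-0.23) and against 12 h (-0.14). The cause was not tested beyond what each setting does by construction.

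Leaving out each column in turn gave, against 0 h, 0.28 to 2.33 for IRT1 at 0.5 h, -0.28 to 0.52 at 1 h, 1.04 to 1.55 at 2 h and -0.33 to 0.11 at 48 h. Between neighbouring times the ranges for IRT1 were -2.21 to -0.16 from 0.5 to 1 h, 0.77 to 1.57 from 1 to 2 h, 1.66 to 2.65 from 2 to 4 h, -0.23 to 0.75 from 4 to 8 h and -0.44 to 0.15 from 8 to 12 h. For FEA1 from 2 to 4 h it was -0.037 to 0.29. Where a time kept 1 column, that column was assumed to vary like the others.

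Genes called against 0 h numbered, with a pseudocount of 5, 172 higher and 229 lower at 0.5 h (main 737 and 455), 248 and 348 at 1 h (1096 and 647), 326 and 521 at 2 h (1235 and 939), 244 and 830.0 at 4 h (783 and 1548), 387 and 963 at 8 h (962 and 1817), 541 and 1328 at 12 h (1322 and 2357), 551 and 539 at 24 h (1930.0 and 835), and 1076 and 1282 at 48 h (2410.0 and 2068). With a pseudocount of 0.1 the higher genes numbered 1661, 2167, 2180.0, 1648, 1593, 2022 and 3145 from 0.5 to 24 h, and with 0.5 they numbered 1152 at 0.5 h. After centring, 459 rose by 0.5 h, 659 rose and 979 fell by 1 h, and 913 rose and 1427 fell by 24 h. A filter of 5 RPKM left 766, 869, 1117 and 1338 higher at 2, 12, 24 and 48 h, with fewer genes tested.

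Of the 5 genes most like FEA1, IRT1 and FOX2, 2, 1 and 3 stayed by Spearman's rho, 3, 3 and 4 in duplicate 1 alone, and again 3, 3 and 4 in duplicate 2 alone. IRT1 had the fewest reads of the 3 members, with 21 to 45 in 7 of its 18 libraries. Its duplicates also differed where reads were many. At 4 h, with 1301 and 518 reads, the exact Poisson intervals were 26.8 to 29.9 and 10.9 to 13.0 RPKM.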
